A study of Mus musculus with 2 samples.

Results

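The genes by which a cell takes up, stores and burns fatty acids were followed in CD8+ T cells from mouse melanomas. The set holds 37 genes given by name and matched by gene symbol, of 32285 genes counted, and all 37 were found. They fall into uptake and activation (6 genes), lipid droplet and lipolysis (7), the carnitine shuttle (3), mitochondrial beta-oxidation (14), peroxisomal and dual steps (5) and regulators (2). The rule that lists them uses no measured value.

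CD8+ tumor-infiltrating lymphocytes (TIL) were taken from B16 F0 tumors, a transplanted mouse melanoma line, in male C57Bl/6J mice labelled as 16 weeks old. The lean library came from mice on normal chow (NC) and the obese library from mice made obese on a western diet (WD) rich in fat and sugar, fed for weeks before the tumor was transplanted. No allele or drug separates the groups, obesity was induced by diet, and the number of mice behind each library is not given in the sources used here. Each diet is represented by 1 library without replicates, so no test between diets was possible. Every interval is a 95% interval that covers counting error only.

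A fatty acid that enters a T cell is carried by binding proteins and joined to coenzyme A. It is then either esterified and packed into lipid droplets or passed through the carnitine shuttle into mitochondria. There it is shortened by repeated rounds of dehydrogenation, hydration, a further dehydrogenation and thiolysis, and the electrons pass through electron transfer flavoprotein to the respiratory chain. Peroxisomes shorten very long and branched chains first. In CD8+ T cells, oxidation of fatty acids is best known from long-lived memory cells, while dividing effector cells rely heavily on glycolysis and build new membranes.

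Cells were kept when mitochondrial genes took under 7.5% of their UMIs and their total lay above 500 and below 50000. This gave 2456 cells with 27815785 UMIs for NC and 2289 cells with 28705830 UMIs for WD. A unique molecular identifier (UMI) marks 1 captured RNA molecule. The libraries shared 2 cell barcodes. All 7 CD8 T cell markers were detected in both libraries, at a summed 6324 and 5628 UMIs per 1000000 UMIs of the library (CPM). Summed melanoma markers were at 1.73 CPM in NC and 2.37 CPM in WD, and macrophage or monocyte markers at 64.3 and 82.6 CPM. Of the latter sum *Ccr2*, which is not confined to those cells, made up 36.2 and 47.2 CPM. *Lyz2* was lower in WD (10.0 and 3.14 CPM) and *Apoe* higher (1.83 and 8.57 CPM). Summed dendritic markers were at 519 CPM in NC and 530 CPM in WD. Among them *H2-Aa* (8.05 and 30.8 CPM), *H2-Ab1* (10.3 and 33.5 CPM) and *Cd74* (72.2 and 130 CPM) were higher in WD. Only *Irf8* (178 and 110 CPM) and *Bst2* (229 and 197 CPM) of that list were lower. Together *Irf8* and *Bst2*, which are not confined to dendritic cells, made up most of the sum in each library. Adipocyte markers were at 0.395 and 0.488 CPM, with *Adipoq*, *Cfd*, *Cidec* and *Adrb3* at 0 in both. Of the 6 endothelial markers 3 were detected in each library, at a summed 11.8 CPM in NC and 16.9 CPM in WD, while *Tie1*, *Emcn* and *Cldn5* were at 0 in both. Nearly all of that sum was *Pecam1*, which T cells also express, at 318 and 466 UMIs. NK cell markers had 122 UMIs in NC (4.39 CPM) and 31 in WD (1.08 CPM), with *Ncr1* and *Klra4* at 0 in WD. Red cell markers were at 0 in NC and at 320.5 CPM in WD, almost all in 1 shallow cluster that stayed unnamed. Ratios over all cells were also taken in cells with *Cd8a* or *Cd8b1* and no UMI of *Cd4*, *Cd79a*, *Lyz2* or *Pmel*. This left out 150 NC and 130 WD cells. Ratios were also taken without the shallow and dendritic-like clusters, as given with *Fabp5*. Both settings are among the alternatives described at the end. The part of each cell type by itself was not tested.

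Cells were clustered without the members among the variable genes, so that the states were not built from the genes compared. The proliferating-like cluster held 478 NC and 578 WD cells and was led by *Pclaf*, *Birc5* and histone genes. The effector-like cluster, led by *Gzmd*, *Gzmg* and *Penk*, held 610 and 308 cells. The naive- or memory-like cluster, with *Lef1* and *Tcf7* among its leading genes, held 576 and 424 cells. Cluster 0, led by *Gzma* and interferon-stimulated genes such as *Ifit3*, held 474 and 712 cells and was left without a cell type name. In a finer split, also used below, a group led by *Gzma* and *Ccl5* (411 and 630 cells) lay mostly in cluster 0. A much smaller group led by *Ifit3* and *Rsad2* (60 and 70 cells) did so too. The proliferating-like cells supplied 41.1% of all UMIs in NC and 49.0% in WD, and the effector-like cells 29.7% and 16.7%. The median effector-like cell held 11269 UMIs in NC and 13890.5 in WD, and the median proliferating-like cell 22262.5 and 22852.5. A value over all cells therefore mixes differences within states with differences in their proportions, and values within states are given beside it.

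Over all cells, 31 of the 37 members had at least 200 UMIs in both libraries together, and these are the members for which ratios are read. A member was called when the log2 ratio of WD over NC was at least 0.32 either way, that is 25% or more above or 20% or more below the NC level. This is a limit of size and not a test. Called higher in WD were 4 members, *Cpt1a*, *Fabp5*, *Slc25a20* and *Acsl1*, which is 12.9% of the 31, beside 9.60% of all 9210 genes past the same floor. Called lower were 3, *Crot*, *Acsl4* and *Ech1*, which is 9.68%, beside 5.35% of all genes. With the same mix of clusters in both libraries 2 higher and 2 lower calls remained, since *Fabp5* (0.28), *Acsl1* (0.28) and *Ech1* (−0.27) then fell short of the limit. The share of all genes past the limit under that mix was not computed, so these counts have no background beside them. The median WD over NC ratio was 0.02 in log2 over the members and 0.04 over all genes. The set as a whole thus lay close to the middle of all genes, and the called shares rest on only 4 and 3 genes. By step, the median was 0.44 in the carnitine shuttle, from 2 genes past the floor, and 0.20 in uptake and activation, from 4. It was 0.03 in mitochondrial beta-oxidation, −0.04 in the lipid droplet group and −0.12 in the peroxisomal and dual group, from 5 genes. The 11 other peroxisomal genes past the floor, listed for comparison below, had a median of 0.06, with 8 above 0 and 3 below. All 7 calls were below 1.5-fold.

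**Figure D1:**
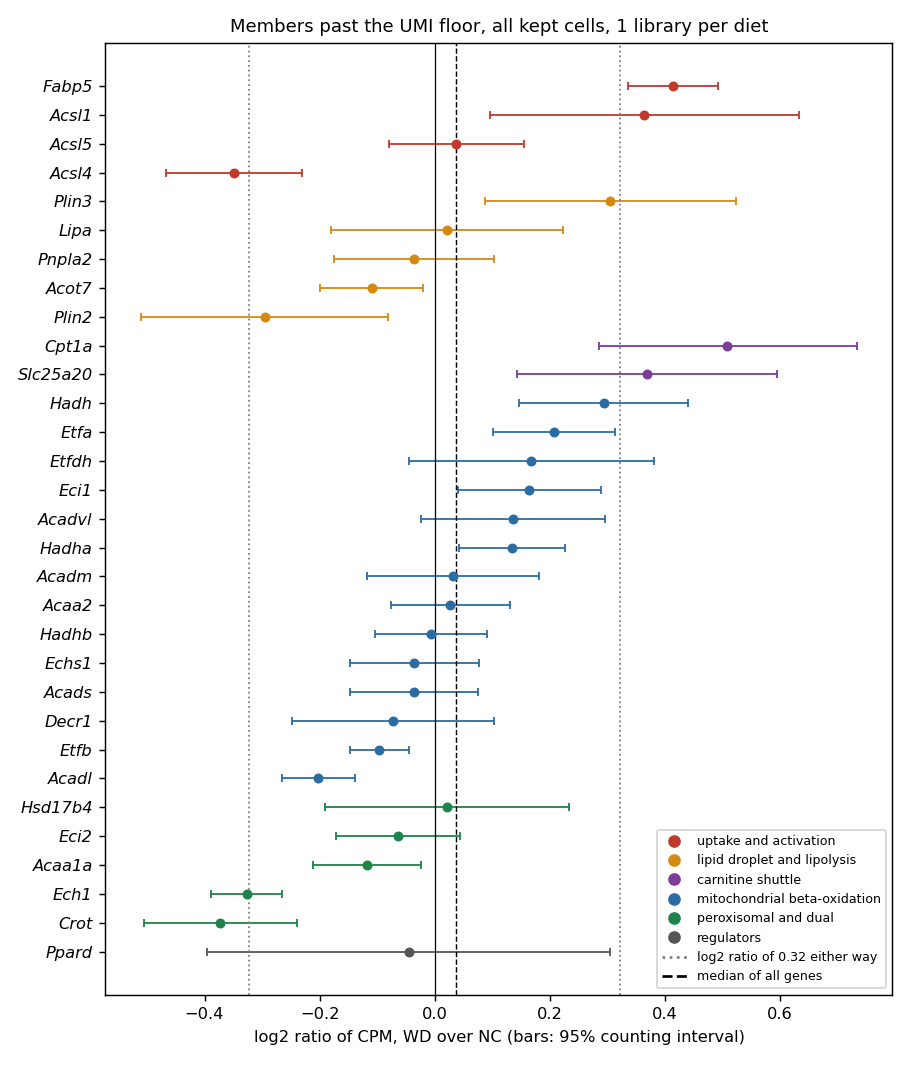
Log2 ratio of CPM in WD over NC (horizontal axis) for the 31 members with at least 200 UMIs, over all kept cells, coloured by step. Points are single ratios of 1 library over 1 library, bars are 95% counting intervals, dotted lines mark 0.32 either way and the dashed line the median of all genes at 0.04. The 14 mitochondrial members sit between −0.20 and 0.29, inside the dotted lines. Both carnitine shuttle genes past the floor sit to the right of them, and *Cpt2*, under the floor, is not drawn.

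The carnitine shuttle was the step in which every member past the UMI floor was higher in WD. *Cpt1a* (chr19:3322334-3385733, plus strand, GRCm38) encodes carnitine palmitoyltransferase 1A of the outer mitochondrial membrane, the step that commits a long-chain fatty acid to oxidation. It had 278 UMIs in NC and 408 in WD, or 9.99 CPM (8.85 to 11.2) and 14.2 CPM (12.9 to 15.7). The log2 ratio was 0.51 (0.28 to 0.73), the highest of the 31 members. *Slc25a20* (chr9:108662088-108684641, plus strand) encodes the carrier that swaps acylcarnitine for carnitine across the inner membrane. It had 286 and 381 UMIs, or 10.3 CPM (9.12 to 11.5) and 13.3 CPM (11.97 to 14.7), for a log2 ratio of 0.37 (0.14 to 0.59). For both genes the 2 counting intervals do not overlap. The same held for members that were not called, such as *Hadh* and *Etfa*, so it does not set the pair apart. The share of all genes for which this holds was not computed. As a mean over cells the log2 ratio of *Slc25a20* was 0.15, short of the limit. *Cpt2*, which returns the acyl group to coenzyme A inside the mitochondrion, had 92 and 100 UMIs and lay just under the floor. Its log2 ratio was 0.07 (−0.35 to 0.50), so the third gene of the shuttle lay near 0.

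The sequences upstream of both genes are shown because both were called higher in WD over all cells. Those of a lower gene and of a paired locus are shown for comparison. They are credited to RefSeq on GRCm38.p6, plus strand. They start 250 bases before the RefSeq start of the gene and end at the first base of any exon in the GENCODE annotation, and the paired locus is shown from exon to exon. GENCODE places the start of *Cpt1a* further upstream, so its stretch lies inside the annotated gene and outside its exons. Capitals mark AGGTCA or its reverse complement TGACCT, the half-site bound by nuclear receptors such as the PPARs, which control many genes of fatty acid oxidation. The stretches are chr19:3323051-3323284 for *Cpt1a*, chr9:108661886-108662087 for *Slc25a20*, chr7:28825088-28825216 for *Ech1* and chr5:30155163-30155247 for the interval between *Hadha* and *Hadhb*.
Cpt1a: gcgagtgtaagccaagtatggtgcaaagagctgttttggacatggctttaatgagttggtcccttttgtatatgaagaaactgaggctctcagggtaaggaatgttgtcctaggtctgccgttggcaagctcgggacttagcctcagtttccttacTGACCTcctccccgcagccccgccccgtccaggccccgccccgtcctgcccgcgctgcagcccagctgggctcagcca
Slc25a20: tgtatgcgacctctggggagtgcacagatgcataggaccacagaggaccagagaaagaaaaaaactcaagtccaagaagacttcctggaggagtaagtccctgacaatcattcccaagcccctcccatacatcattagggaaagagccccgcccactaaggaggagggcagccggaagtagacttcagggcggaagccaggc
Ech1: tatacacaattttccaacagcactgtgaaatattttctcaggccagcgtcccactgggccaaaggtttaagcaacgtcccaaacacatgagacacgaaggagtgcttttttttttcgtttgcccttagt
Hadha-Hadhb: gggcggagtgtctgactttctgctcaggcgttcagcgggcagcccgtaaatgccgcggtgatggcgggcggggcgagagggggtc

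The stretch of *Cpt1a* holds 1 half-site and the other 3 hold none. Over the full 300-base windows of the promoter table, AGGTCA on either strand was found in 6 of the 33 members listed there (18.2%), namely *Acadm*, *Acadvl*, *Cd36*, *Cpt1a*, *Echs1* and *Plin2*, and in 18.1% of all 27025 genes. The direct repeat AGGTCANAGGTCA was found in no member and in 0.0481% of all genes. GGGCGG, the GC box, was found on either strand in 28 of the 33 members (84.8%) and in 38.2% of all genes. All genes here were taken whether or not they were expressed in these cells, while most members passed the UMI floor. The share among expressed genes was not computed, so the gap cannot be read as a trait of this set. A match is a description of the letters and not a site shown to be used.

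In uptake and activation, 2 members were higher in WD, 1 was lower and *Acsl5* lay near 0. *Fabp5* (chr3:10012548-10016607, plus strand) encodes a small cytosolic protein that carries fatty acids. It had 2306 UMIs in NC and 3170 in WD, or 82.9 CPM (79.6 to 86.4) and 110.4 CPM (107 to 114), for a log2 ratio of 0.41 (0.34 to 0.49). Dendritic-like cells, which lie outside the CD8+ T cell states, held 7 of the NC UMIs in 10 cells and 233 of the WD UMIs in 21 cells, of which 118 were in 1 cell. With cluster 0 and the proliferating-, naive- or memory- and effector-like clusters alone, the log2 ratio of *Fabp5* was 0.31, just short of the limit.

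*Acsl1* (chr8:46471037-46536051, plus strand) and *Acsl4* (chrX:142317993-142390535, minus strand) both encode ligases that join long-chain fatty acids to coenzyme A, the second with a preference for arachidonic acid. *Acsl1* had 204 UMIs in NC and 271 in WD, or 7.33 CPM (6.36 to 8.41) and 9.44 CPM (8.35 to 10.6), for a log2 ratio of 0.36 (0.10 to 0.63). *Acsl4* had 1308 and 1060 UMIs, or 47.0 CPM (44.5 to 49.6) and 36.9 CPM (34.7 to 39.2), for a log2 ratio of −0.35 (−0.47 to −0.23). These ligases of like function thus lay on opposite sides. *Acsl5* was at 41.8 and 43.0 CPM, for a log2 ratio of 0.04 (−0.08 to 0.15), and *Acsl3* had 24 and 33 UMIs, under the floor.

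*Cd36* (chr5:17781690-17888801, minus strand), the scavenger receptor through which many cells import fatty acids and oxidized lipids, was practically undetected. It had 0 UMIs in NC, which allows up to 0.133 CPM, and 2 UMIs in WD, in 2 cells. A difference between libraries was not detectable at this depth.

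No lipid droplet or lipolysis member was called over all cells, and the 2 droplet coat genes pointed in opposite directions. *Plin2*, whose protein coats droplets and is stabilised by them, was at 14.2 CPM (12.9 to 15.7) in NC and 11.6 CPM (10.4 to 12.9) in WD, for a log2 ratio of −0.30 (−0.51 to −0.08). *Plin3*, a coat protein that also exists free in the cytosol, was at 11.3 CPM (10.0 to 12.6) and 13.9 CPM (12.6 to 15.3), for a log2 ratio of 0.30 (0.09 to 0.52). With *Hadh*, these were the members just inside the limit of size, and *Ech1* at −0.33 and *Acsl1* at 0.36 were just outside it. *Pnpla2*, the triglyceride lipase that opens droplet breakdown, was at 30.4 and 29.7 CPM. *Lipa*, the acid lipase of lysosomes, was at 14.3 and 14.5 CPM, and *Acot7*, a thioesterase that frees fatty acids from coenzyme A, at 75.1 and 69.6 CPM. The hormone-sensitive lipase *Lipe* had 53 and 58 UMIs and the monoglyceride lipase *Mgll* had 10 and 11, both under the floor.

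All 14 genes of mitochondrial beta-oxidation passed the floor and none was called in either direction over all cells, with log2 ratios from −0.20 (*Acadl*) to 0.29 (*Hadh*). Of the acyl-CoA dehydrogenases, which take the first electrons from chains of different length, *Acadl* was at 154 and 134 CPM, for a log2 ratio of −0.20 (−0.27 to −0.14). *Acadm*, *Acadvl* and *Acads* were at 0.03, 0.14 and −0.04 on that scale. *Hadh*, the 3-hydroxyacyl-CoA dehydrogenase for shorter chains, was at 24.6 CPM (22.7 to 26.5) in NC and 30.1 CPM (28.1 to 32.2) in WD, for a log2 ratio of 0.29 (0.15 to 0.44). *Hadha* and *Hadhb* encode the 2 subunits of the mitochondrial trifunctional protein and face away from each other with 85 bases between their annotated starts. *Hadha* was at 64.7 and 71.1 CPM, for a log2 ratio of 0.13 (0.04 to 0.23), and *Hadhb* at 61.2 and 60.9 CPM, for a log2 ratio of −0.01 (−0.10 to 0.09). Of the electron transfer flavoprotein, *Etfa* was at 0.21 (0.10 to 0.31) and *Etfb* at −0.10 (−0.15 to −0.04) in log2 ratio, so these subunits lay on opposite sides of 0, by small amounts. *Etfdh*, the oxidoreductase that hands these electrons to ubiquinone, was at 0.17 (−0.05 to 0.38). The thiolase *Acaa2* (0.03), the hydratase *Echs1* (−0.04), and *Decr1* (−0.07) and *Eci1* (0.16), which deal with double bonds in unsaturated chains, completed the step.

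The peroxisomal and dual group held 2 of the 3 lower calls. *Crot* (chr5:8966033-8997324, minus strand) encodes the peroxisomal carnitine octanoyltransferase that releases shortened chains for the mitochondria. It had 1036 UMIs in NC and 826 in WD, or 37.2 CPM (35.0 to 39.6) and 28.8 CPM (26.8 to 30.8), for a log2 ratio of −0.37 (−0.51 to −0.24), the lowest of the 31 members. *Ech1* (chr7:28825217-28832247, plus strand) encodes a dienoyl-CoA isomerase found in peroxisomes and mitochondria. It had 4693 and 3862 UMIs, or 169 CPM (164 to 174) and 135 CPM (130 to 139), for a log2 ratio of −0.33 (−0.39 to −0.27). The counting intervals of both genes do not overlap between libraries, which also held for *Acadl* and *Etfb*, neither of them called. Here too the share of all genes was not computed. *Acaa1a*, the peroxisomal thiolase, was at −0.12 (−0.21 to −0.02). Its near copy *Acaa1b* had 13 and 17 UMIs, and reads that fit both cannot be assigned with certainty. *Hsd17b4* (0.02), the multifunctional enzyme of peroxisomes, and *Eci2* (−0.06) lay near 0.

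Of the regulators, *Ppard* (chr17:28232700-28301474, plus strand), a nuclear receptor activated by fatty acids, had 139 UMIs in each library. Its levels were 4.997 CPM (4.20 to 5.90) in NC and 4.84 CPM (4.07 to 5.72) in WD, for a log2 ratio of −0.05 (−0.40 to 0.30). *Ppargc1a* (chr5:51454250-51567726, minus strand), the coactivator PGC-1 alpha of mitochondrial biogenesis, had 0 UMIs in NC, which allows up to 0.133 CPM, and 3 in WD.

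Another 80 genes of the same pathway were listed for comparison. Of these, 45 passed the floor, 4 were called higher in WD and 4 lower, or 8.89% each, and their median log2 ratio was 0.03. The calls per step were 0 higher and 0 lower of 5 uptake genes, 2 and 1 of 13 droplet genes, 1 and 3 of 12 mitochondrial genes, 0 and 0 of 11 peroxisomal genes and 1 and 0 of 4 PPAR regulators and targets. The 6 with the largest ratios in either direction are given in full. *Ppargc1b*, the PGC-1 beta coactivator, had 135 and 206 UMIs, for a log2 ratio of 0.56 (0.24 to 0.89). *Lpin1*, the phosphatidate phosphatase on the way to triglyceride, had 454 and 675 UMIs, for a log2 ratio of 0.53 (0.35 to 0.70). *Pccb*, a subunit of propionyl-CoA carboxylase, had 98 and 135 UMIs, for a log2 ratio of 0.42 (0.03 to 0.81). These 3 were higher in WD. *Sirt3*, a mitochondrial deacetylase, had 341 and 253 UMIs, for a log2 ratio of −0.48 (−0.72 to −0.24). *Acadsb*, a dehydrogenase for short branched chains, had 211 and 162 UMIs and a log2 ratio of −0.43 (−0.73 to −0.12), and *Acad8*, which acts on valine, had 238 and 187 UMIs and a log2 ratio of −0.39 (−0.68 to −0.11). The 2 dehydrogenases act mainly in the breakdown of branched-chain amino acids.

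Members were next compared between cell states within each library. The proliferating-like and effector-like cells carried higher CPM of most members than the naive- or memory-like cells, but the same was true of most genes. Ribosomal protein genes took 44.9% of the UMIs of naive- or memory-like cells in NC and 44.7% in WD, against 29.1% and 29.3% in proliferating-like and 30.1% and 30.7% in effector-like cells. Members are therefore read against the median of all genes, which this difference shifts along with them. Over the naive- or memory-like cells, the median log2 ratio of 29 effector-like members was 0.84 in NC and 0.88 in WD, against 0.33 and 0.36 for all genes. The median of 30 proliferating-like members was 0.72 in NC and 0.62 in WD, against 0.43 and 0.46 for all genes. For 23 members in cluster 0 it was 0.41 and 0.34, against 0.32 and 0.33. The floor here counts the UMIs of both states together, so a member scarce in naive- or memory-like cells can pass through the state in which it is high. Of all members, 13 reached 200 UMIs in naive- or memory-like cells alone. By contrast 16 of the 29, 17 of the 30 and 10 of the 23 did not, among them *Fabp5*, *Cpt1a*, *Slc25a20*, *Plin2* and *Acot7*. Over those 13 the median in effector-like cells was lower, at 0.45 in NC and 0.48 in WD, against 0.22 and 0.26 for all genes under the same floor. In proliferating-like cells it was 0.67 and 0.55, against 0.26 and 0.29, and in cluster 0 it was 0.25 and 0.27, against 0.28 and 0.29.

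Counts under the floor on both states together describe the members that passed it and carry the same limit. In effector-like cells 21 members in NC (72.4%) and 22 in WD (75.9%) lay at or above the limit of 0.32, beside 50.6% and 52.4% of all genes. In proliferating-like cells the counts were 19 of 30 (63.3%) in NC and 22 of 30 (73.3%) in WD, beside 54.9% and 56.2%. In cluster 0 they were 12 of 23 in both libraries (52.2%), beside 49.7% and 50.4%, a share near the background. Of the 13 members past the floor in naive- or memory-like cells, 9 were at or above the limit in effector-like cells in each library (69.2%, beside 43.2% and 45.9% of all genes). In proliferating-like cells 7 in NC (53.8%) and 9 in WD (69.2%) were, beside 46.6% and 48.6%, and in cluster 0 the counts were 5 (38.5%) and 6 (46.2%), beside 45.8% and 45.4%. Called lower were 1 effector-like member in NC (3.45%) and none in WD, beside 15.9% and 15.5% of all genes, and 3 proliferating-like members in NC (10%) and 1 in WD (3.33%), beside 19.3% and 18.6%. No member was called lower in cluster 0, beside 8.34% and 7.96%. When mitochondrial and ribosomal protein genes were left out of the total, the median of all genes lay between −0.04 and 0.07 in these 3 comparisons. The member medians were then 0.32 in NC and 0.23 in WD in proliferating-like cells, 0.46 and 0.52 in effector-like cells, and 0.05 and −0.01 in cluster 0.

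**Figure D2:**
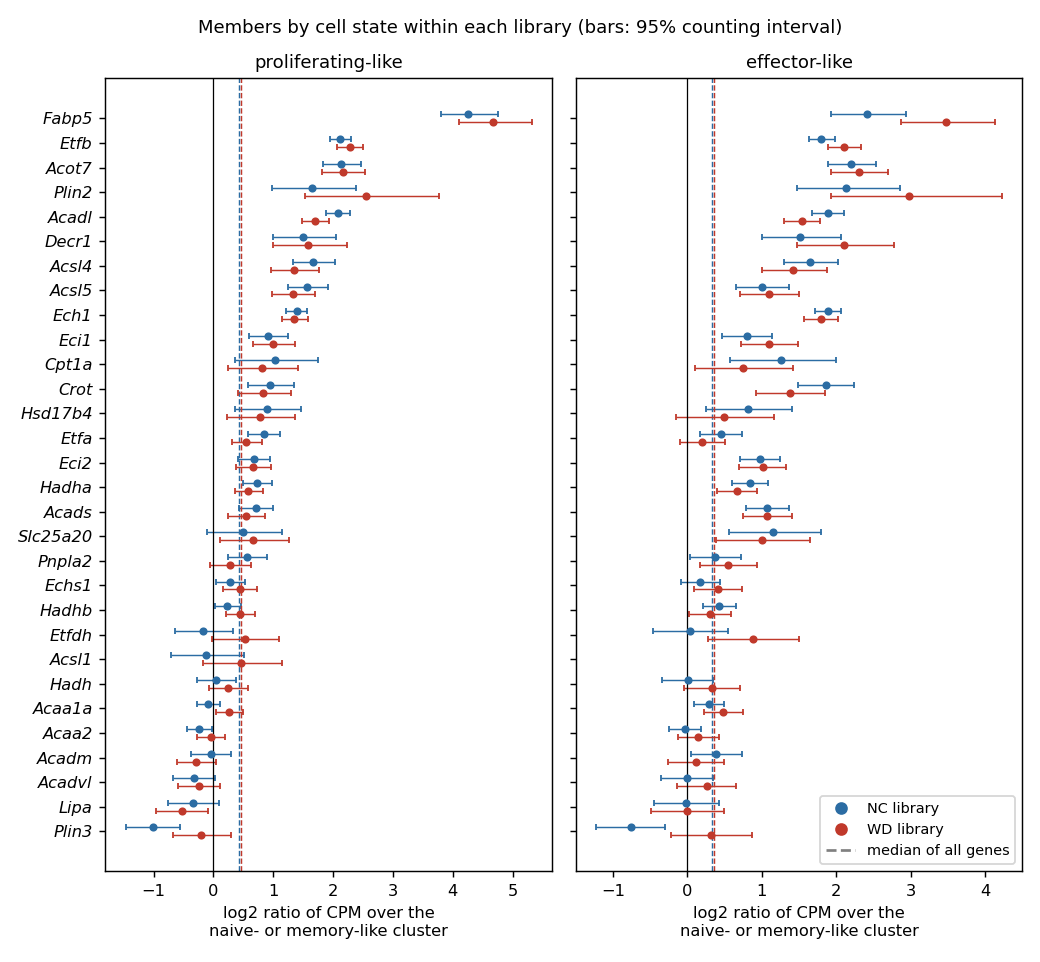
Log2 ratio of CPM over the naive- or memory-like cluster (horizontal axes) for members in proliferating-like (left) and effector-like (right) cells, within the NC (blue) and the WD library (red). Points are 1 library each, bars are 95% counting intervals, and dashed lines mark the median of all genes, at 0.43 and 0.46 on the left and 0.33 and 0.36 on the right. *Fabp5* lies far to the right of every other member in proliferating-like cells, and *Plin3*, *Lipa* and *Acadvl* lie to the left of the dashed lines there in both libraries.

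*Fabp5* differed between states far more than between diets. It was at 161 CPM in NC and 173 CPM in WD in proliferating-like cells and at 45.0 and 75.2 CPM in effector-like cells. In cluster 0 it was at 15.7 and 18.0 CPM, and in naive- or memory-like cells at 8.40 and 6.77 CPM, from 38 and 24 UMIs. *Fabp5* thus passed the floor between states only through the states in which it was higher. The log2 ratio of proliferating-like over naive- or memory-like cells was 4.26 in NC and 4.67 in WD, and of effector-like cells 2.42 and 3.48. Proliferating-like cells held 79.6% of the *Fabp5* UMIs of the NC library and 76.7% of those of the WD library.

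After *Fabp5* the next members lay far lower, *Acot7* (2.14) in NC and *Plin2* (2.54) in WD, both of the lipid droplet group, with counting intervals that overlapped that of *Etfb*. *Etfb* was at 68.3 and 55.3 CPM in naive- or memory-like cells, at 296 and 268 CPM in proliferating-like cells, for a log2 ratio of 2.12 and 2.28, and at 238 and 239 CPM in effector-like cells. *Acadl* stood out among the 4 acyl-CoA dehydrogenases, at 2.08 in NC and 1.70 in WD in proliferating-like cells and 1.89 and 1.54 in effector-like cells. *Acadm* was at −0.05 and −0.29 in proliferating-like cells and *Acadvl* at −0.33 and −0.24, both under the median of all genes. The enzymes of one reaction for different chain lengths thus did not lie alike.

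Of the lipid droplet group, *Acot7* and *Plin2* were high in the same cells and *Plin3* and *Lipa* were not. *Acot7* was at 20.1 and 18.9 CPM in naive- or memory-like cells, from 91 and 67 UMIs. It was at 88.5 and 84.5 CPM in proliferating-like cells and 92.7 and 93.6 CPM in effector-like cells. *Plin2* was at 4.64 and 2.26 CPM in naive- or memory-like cells, from 21 and 8 UMIs, and at 20.4 and 17.7 CPM in effector-like cells, for a log2 ratio of 2.13 in NC and 2.97 in WD. *Plin3* ran the other way in NC, at 17.0 CPM in naive- or memory-like cells, 8.40 CPM in proliferating-like cells and 10.1 CPM in effector-like cells. In WD the same values were 13.5, 11.7 and 16.9 CPM, so the order seen in NC did not hold there for effector-like cells. *Lipa* was within −0.02 and 0.00 of the naive- or memory-like level in effector-like cells in log2 ratio, and lower in proliferating-like cells at −0.34 and −0.53. *Acaa2*, at 59.5 and 53.6 CPM in naive- or memory-like cells and 58.2 and 59.4 CPM in effector-like cells, was likewise under the median of all genes.

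*Crot* and *Ech1*, the lower calls of the peroxisomal and dual group, were both highest in effector-like cells among the 4 clusters of the lean library. *Ech1* was at 65.6 CPM in naive- or memory-like, 128 CPM in cluster 0, 172 CPM in proliferating-like and 243 CPM in effector-like cells of NC. *Crot* was at 15.5, 39.0, 29.9 and 56.1 CPM in the same order. In WD effector-like cells they were at 192 and 37.3 CPM, the latter beside 38.8 CPM in cluster 0. Effector-like cells made up 24.8% of NC cells and 13.5% of WD cells.

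Within clusters the median of the members' WD over NC ratios in log2 stayed near 0, at 0.03 in proliferating-like, 0.05 in effector-like, −0.02 in naive- or memory-like cells and −0.01 in cluster 0. In proliferating-like cells 6 of 30 members were called higher (20%, beside 8.44% of all genes) and 1 lower (3.33%, beside 5.88%). In effector-like cells 5 of 25 were higher (20%, beside 12.9%) and 2 lower (8%, beside 8.31%). Naive- or memory-like cells had 2 higher and 1 lower of 13 (15.4% and 7.69%, beside 10.6% and 7.02%), and cluster 0 had 0 and 1 of 20 (0% and 5%, beside 9.59% and 6.52%).

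The proliferating-like calls were led by the carnitine shuttle. *Slc25a20* was at 9.01 CPM in NC and 13.9 CPM in WD in these cells, for a log2 ratio of 0.62 (0.27 to 0.98), and *Cpt1a* at 9.89 and 14.8 CPM, 0.58 (0.24 to 0.92). The other higher calls were *Plin3* (0.48), *Acsl1* (0.43), *Etfdh* (0.36) and *Hadh* (0.33), and the lower call was *Acsl4* (−0.38, −0.54 to −0.21). *Fabp5* was at 0.10 (0.02 to 0.19) here, although this cluster held most of its UMIs. *Cpt1a* was above 0 in each of the 4 clusters, at 0.28 in effector-like, 0.80 in naive- or memory-like cells and 0.53 in cluster 0, but from under 200 UMIs in each of these 3 and with intervals that include 0.

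In effector-like cells *Fabp5* was at 45.0 CPM in NC and 75.2 CPM in WD, for a log2 ratio of 0.74 (0.53 to 0.96), the largest of any member past the floor there. Summed macrophage or monocyte markers, a list that includes *Ccr2*, were at 78.4 CPM in NC and 56.9 CPM in WD in the same cells. The part of such cells in the *Fabp5* ratio was not tested. The other higher calls were all mitochondrial, namely *Hadh* (0.46, 0.15 to 0.76), *Decr1* (0.37, 0.05 to 0.69), *Acadvl* (0.35, 0.03 to 0.67) and *Eci1* (0.34, 0.09 to 0.59). The share of UMIs from mitochondrial transcripts was also higher in WD, at 1.81% in NC and 2.63% in WD in effector-like cells and 1.82% and 2.43% in proliferating-like cells. With mitochondrial and ribosomal protein genes left out of the total, these 4 genes were at 0.49, 0.40, 0.38 and 0.37 in effector-like cells. Such a change of total shifts every gene by the same amount, so these values do not bear on the mitochondrial share. The part of that share in the calls was not tested. Lower were *Crot*, at 56.1 and 37.3 CPM, for a log2 ratio of −0.59 (−0.85 to −0.34), and *Ech1*, at 243 and 192 CPM, −0.34 (−0.45 to −0.23). In cluster 0 the intervals of both genes included 0, *Crot* at −0.01 (−0.36 to 0.35) and *Ech1* at −0.02 (−0.21 to 0.18), and the call there was *Acsl4* at −0.41 (−0.80 to −0.01). In naive- or memory-like cells the calls were *Etfa* (0.41) and *Acadm* (0.32) higher and *Acaa1a* (−0.32) lower. *Acadm* rested on 105 UMIs in NC and 103 in WD there, just past the floor, and lay at the limit of size.

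**Figure D3:**
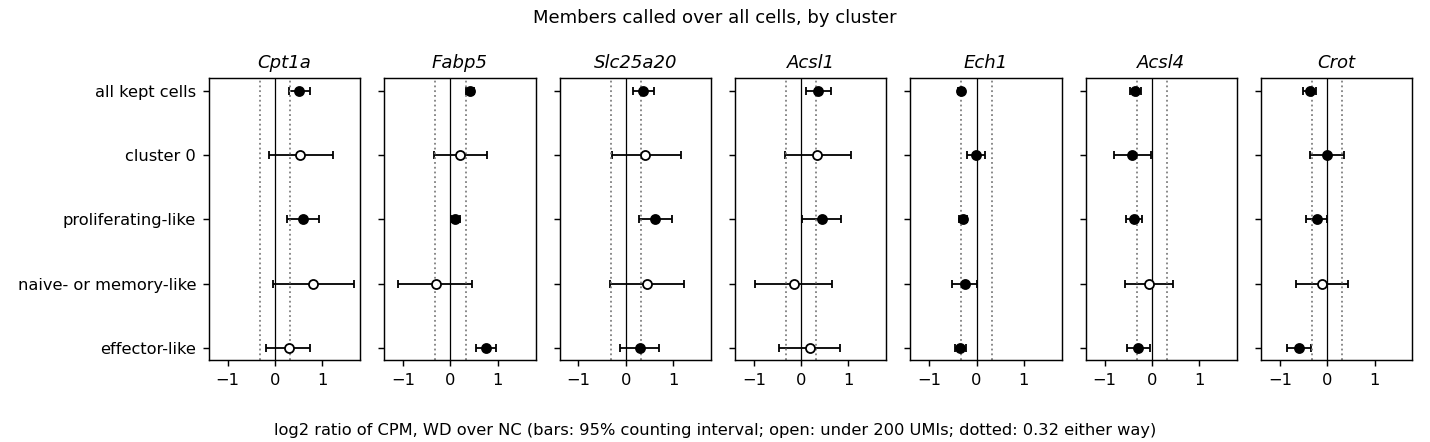
Log2 ratio of CPM in WD over NC (horizontal axes) for the 7 members called over all cells, in all kept cells and in each of 4 clusters (rows). Bars are 95% counting intervals, open points rest on under 200 UMIs, and dotted lines mark 0.32 either way. *Cpt1a* is to the right of 0 in every row, *Fabp5* is past the dotted line only in the rows for all cells and effector-like cells, and *Ech1* and *Crot* lie near 0 in cluster 0.

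The effector-like cluster was not of the same make-up in both libraries. A finer split divided them into cells led by *Gzmd* and *Gzmg* (502 NC and 169 WD cells) and cells led by *Cd81*, *Ccl1* and *Penk* (106 and 137 cells). In the *Gzmd*-led cells *Fabp5* was at 41.3 CPM in NC and 70.7 CPM in WD, for a log2 ratio of 0.78 (0.51 to 1.04), and in the *Cd81*-led cells at 61.7 and 78.2 CPM, 0.34 (−0.06 to 0.75). *Crot* was at 61.9 and 44.1 CPM in the *Gzmd*-led cells, −0.49 (−0.79 to −0.20), and at 22.4 and 27.3 CPM in the *Cd81*-led cells, 0.29 (−0.39 to 0.996). *Ech1* was at −0.22 (−0.35 to −0.08) and −0.04 (−0.31 to 0.24). Both *Crot* and *Ech1* were higher in the *Gzmd*-led cells, whose share was smaller in WD. The part of this share in the ratios of *Crot* and *Ech1* over the whole effector-like cluster was not tested. *Decr1*, at 0.39 (−0.06 to 0.82) and −0.37 (−0.87 to 0.13), had opposite signs in the 2 groups. *Hadh* (0.26 and 0.50), *Acadvl* (0.24 and 0.55) and *Eci1* (0.12 and 0.58) were above 0 in both, and of these only *Eci1* in the *Cd81*-led cells had an interval above 0 (0.09 to 1.09).

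Most proliferating-like cells fell into a group led by *Ung*, *Cdca7* and *Mcm3* (240 and 341 cells), genes of DNA replication, and one led by *Nusap1* and histone genes (212 and 229 cells). A further small group, led by *Xcl1* and *Ccl1*, held 28 NC and 12 WD cells and is not described further. *Fabp5* was at 166 and 182 CPM in the first and 153 and 163 CPM in the second, log2 ratios of 0.13 and 0.09. *Slc25a20* differed in the first group, at 7.84 CPM in NC and 15.7 CPM in WD, for a log2 ratio of 1.001 (0.48 to 1.54), and was at 0.10 (−0.42 to 0.63) in the second. *Cpt1a* was at 0.31 (−0.15 to 0.79) and 0.70 (0.21 to 1.22). The difference between the groups was not tested for either gene.

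**Figure D4:**
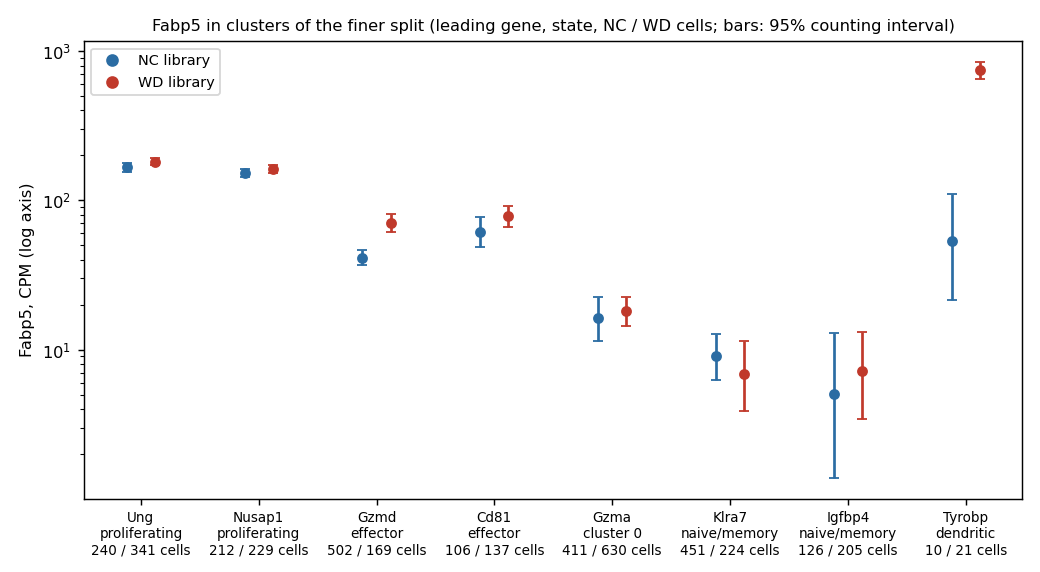
CPM of *Fabp5* (vertical axis, log scale) in 8 clusters of the finer split, NC in blue and WD in red, with 95% counting intervals and the number of NC and WD cells under each. Clusters are named by 1 leading gene and the state they mostly belong to. The proliferating clusters sit between 153 and 182 CPM, and the dendritic-like cells show the widest gap, at 53.1 CPM from 7 UMIs in NC and 741 CPM from 233 UMIs in WD.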

How the data were processed

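CD8+ TIL were enriched on magnetic beads, sorted and captured with the 10x 3' kit, in 1 library per diet. The authors counted UMIs per gene and cell with Cell Ranger 6.0.2 (per the submitters' processing notes, which also name mm10) and deposited these counts without normalization. Counts in 3' data come from transcript ends and were not divided by length. Some deposited cells lie outside the study's filters, so the filters on UMIs and mitochondrial share were applied here. They left out 158 NC and 213 WD cells by mitochondrial share and 83 and 121 at 50000 UMIs or more. The paper reports 2697 NC and 2623 WD cells after its filters. The same numbers were deposited, so the set of cells used here is smaller than the one in the paper. The median kept cell held 7958 UMIs in NC and 9103 in WD.

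UMIs were summed per library and group of cells in Python 3.11.15 (numpy 2.4.6, scipy 1.17.1, pandas 2.3.3). CPM have exact Poisson intervals and log2 ratios exact conditional intervals. On simulated counts for WD against NC over all cells (9210 genes, 200 changed by 0.5 in log2), intervals held the true ratio of 96% of changed genes. The simulated counts held Poisson counting error alone, as the intervals assume. This coverage therefore does not extend to differences between cells or mice. Clusters came from Seurat 5.3.0 in R 4.3.3 on both libraries together, with no integration, 20 principal components, 20 neighbours and 1990 variable genes after the 10 pathway genes among 2000 were removed. The plan asked for the lowest resolution, in steps of 0.05, that gave 6 clusters. None up to 0.15 did, so 0.15 was used, which gave 7. The finer split used 0.8 and gave 13. Scrublet, run through scanpy 1.11.5, called 2 of 4745 cells (0.0421%), a share at which it has not worked, so no doublets were removed. RNA free in the droplets was not removed either.

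The members and all lists were chosen with earlier results of these data known. Values are given for members called, for the 3 highest and 3 lowest ratios between libraries and between states, for *Cd36*, *Cpt1a*, *Ppard* and *Ppargc1a*, and for the 6 other pathway genes with the largest ratios. Further members, the finer clusters and the dendritic-like cells were described after their values were seen. Positions are from GENCODE vM21 (GRCm38), which holds 99.6% of the identifiers in the deposited counts. Alternatives were edgeR 4.0.16 TMM factors, other totals, means over cells, thinning to 2000 UMIs, other filters on cells, other floors and folds, a fixed mix of clusters and other clusterings. Clusters 0 to 3 alone, removal of the 10 cells with most UMIs of a gene and a floor set in naive- or memory-like cells alone were added after the data were seen.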

Additional observations from a re-analysis of the deposited data

How the results depend on the processing

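Of 185 alternative values of the 19 summary results, 171 stayed within the main counting error or within 1.5 times the main count. The other 14 moved. Changes of sign were not counted for summary results. The cluster 0 median in WD, for instance, went from 0.34 to −0.01 without mitochondrial and ribosomal protein genes in the total. Of 781 values for single members, 757 stayed, 24 moved and 0 reversed a call. Those that stayed include the values within clusters under a floor of 50 UMIs. These repeat the main values and could not move, so they say nothing about stability. The count of members higher in WD was 4 and became 2 with the same mix of clusters in both libraries, 1 with a floor of 1000 UMIs, 0 at a limit of 1.5-fold and 7 at one of 0.20 in log2. The count of lower members was 3 and became 0 at 1.5-fold and 5 at 0.20. The shares of all genes under these other settings were not computed, so the counts cannot be read as a trait of the members. The median of the uptake step was 0.36 with a floor of 50 UMIs and 0.038 with one of 1000, and the regulator step, which is *Ppard* alone, was −0.44 as a mean over cells. Without mitochondrial and ribosomal protein genes in the total, the member medians over naive- or memory-like cells were 0.32 in NC and 0.23 in WD for proliferating-like cells and 0.46 in NC for effector-like cells, since this shifts all genes alike. With the floor of 200 UMIs set in naive- or memory-like cells alone, the effector-like medians were 0.45 in NC and 0.48 in WD. *Cpt1a* (0.43 to 0.63) and *Crot* (−0.42 to −0.32) stayed past the limit of 0.32 under all 11 alternatives that give them a value. *Fabp5* (0.28 to 0.57) and *Slc25a20* (0.15 to 0.44) did so under 9, *Ech1* (−0.37 to −0.27) and *Acsl4* (−0.39 to −0.24) under 8 and *Acsl1* (0.24 to 0.94) under 7. The cause was not tested. TMM factors moved the median of all genes from 0.04 to −0.01. No paired analysis was possible because each diet has 1 library and the labels give no replicate numbers. Leaving out a replicate was not possible for the same reason. Depth limits *Cd36*, *Ppargc1a*, *Mgll*, *Acsl3*, *Lipe* and *Cpt2*, and most members within the naive- or memory-like cluster.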

Other observations

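The cells left out for 50000 or more UMIs, 83 in NC and 121 in WD, are given for comparison. *Fabp5* was at 182 CPM in NC and 236 CPM in WD in them, beside 161 and 173 CPM in proliferating-like cells, *Etfb* at 292 and 296 CPM and *Ech1* at 187 and 145 CPM. *Cpt1a* was at 13.2 and 14.2 CPM and *Slc25a20* at 12.7 and 13.1 CPM, where proliferating-like cells had 9.89 and 14.8 CPM and 9.01 and 13.9 CPM. With all deposited cells, the log2 ratio of *Fabp5* over all cells was 0.50.

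In the dendritic-like cells, 10 in NC and 21 in WD, *Ech1* had 33 and 60 UMIs, *Etfb* 14 and 47, *Plin3* 1 and 12 and *Acaa1a* 9 and 29. *Cd36* had no UMI there in either library.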
